A study of Homo sapiens with 24 samples.

Results

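The libraries described here are those of RBMS3 cells after 360 min of actinomycin D and of the same cells at 0 min, 3 libraries for each time and 6 of the 24 libraries of the series. They were chosen by their labels alone, and all 12096 genes with a mean normalized count of at least 10 over the 24 libraries were compared. RBMS3 cells come from HMLE, a human mammary epithelial cell line made immortal in culture, and overexpress the RNA-binding protein RBMS3. They were grown with epidermal growth factor, hydrocortisone, insulin and serum. The labels do not say whether the line is 1 clone or a mixed population. The comparison line is HMLE with LacZ, a bacterial enzyme gene, and its 3 libraries at 0 min and 3 at 360 min are used where the lines are set side by side. In both lines actinomycin D was given at 10 µg/mL, and libraries were also made at 90 and 180 min. RNA was read from its 3′ end with QuantSeq, which primes on poly(A) tails.

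Actinomycin D binds DNA and stops RNA polymerases, so that messages made before the drug decay without being replaced. Messages of signal-induced regulators decay fast, often through AU-rich elements or Pumilio sites in their 3′ UTR, while messages of ribosomal and metabolic proteins last long. RBMS3 belongs to a family of proteins with RNA recognition motifs that bind AU-rich RNA, and the study asked which messages it stabilizes. Each library was scaled to the others by the authors, so a value here is a level relative to other messages and not an amount per cell. The scaled libraries did not sum to the same total, which was 6859933 to 6908351 at 0 min and 7875078 to 8080428 at 360 min. A small rise in the normalized count need not therefore be a larger share of the library. A gene that was higher at 360 min rose relative to other messages, and such a gain cannot be told apart from a slower loss than theirs.

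The targeted gene was measured first. RBMS3 stood at 358, 254 and 203 normalized counts in the 3 RBMS3 libraries at 0 min and at 197, 236 and 201 at 360 min. In LacZ cells it stood at 75.7, 101 and 116 at 0 min. Every RBMS3 library at 0 and 360 min was thus above every LacZ library at 0 min. The labels do not say whether the introduced message carries the gene's own 3′ end, so a 3′ read may miss it. The difference of RBMS3 between 360 and 0 min was -0.33 ± 0.39 (SE) on the log2(normalized count + 1) scale (adjusted p = 0.55) and did not pass the test. PRRX1, a homeobox transcription factor of mesenchymal cells named in the study's title, stood at 484, 491 and 440.1 at 0 min and at 600.2, 521 and 503 at 360 min. Its difference was 0.20 ± 0.50 (SE), adjusted p = 0.8, so that its level after 360 min of blocked transcription was not distinguishable from that before. In LacZ cells PRRX1 had a mean of 2.21 at 0 min and was listed at 0 in all 3 libraries at 360 min, so its decay there was not measurable.

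Normalized counts summed to 6859933 to 6908351 per library at 0 min and to 7875078 to 8080428 at 360 min, and 14346 to 15374 genes were above 0 in each of the 6 libraries. The Pearson correlation of replicates over the genes was 0.941 to 0.947 at 0 min and 0.950 to 0.954 at 360 min. Epithelial markers of the labelled cell type were present in part. Of the 22 markers looked up 5 were listed at 0 in all 3 RBMS3 libraries at 0 min, GRHL2, RAB25, ESRP1 and AP1M2 among them, while the keratins KRT8 and KRT18 had means of 1424 and 578. Of the basal keratins, KRT14 was above its LacZ level, with 0 min means of 6059 against 2555. KRT5 and KRT17 were near theirs, at 2652 against 2702 and 2993 against 2876. These keratins were picked after their values were seen. The list of 11 basal markers they belong to went the other way. It summed to 14372 to 14652 normalized counts at 0 min, against 24968.5 to 26336 in LacZ cells. The 22 markers summed to 4139.6 to 4212 normalized counts at 0 min and 4128 to 4316 at 360 min, against 18655.5 to 21192 in LacZ cells at 0 min. Leukocyte and endothelial markers summed to 55.0 to 70.5 at 0 min and 34.9 to 51.1 at 360 min, with 6 and 5 of 12 at 0 in all libraries. Messages of mesenchymal matrix and cytoskeleton genes summed to 101611 to 107477 at 0 min.

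The 0 min libraries of RBMS3 cells stood apart from all later ones. Their mean profile correlated with that at 90 min at r = 0.949, against 0.978 between 90 and 180 min and 0.978 between 180 and 360 min. The 3 later means were averaged for 7099 genes whose RBMS3 means at 90, 180 and 360 min lay within 1.5-fold of each other. That average was at least 2-fold below the 0 min mean for 219 genes and at least 2-fold above it for 146. In LacZ cells the same 2 counts were 153 and 31 of 7415. Whether these shifts belong to the drug or to the 0 min libraries cannot be told apart, since no library holds untreated cells at a later time. The difference between 360 and 90 min, a comparison added after these values were seen, is therefore given for many of the classes and genes. Of the 126 genes named here that passed against 0 min, 56 passed in the same direction against 90 min.

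After 360 min, 2308 genes (19.1% of those tested) were higher and 2244 genes (18.6%) were lower at an adjusted p under 0.05 with limma. The falls were the larger changes. Of the genes that passed, 1570 fell and 422 rose by more than 1 on the log2 scale, 676 fell and 75 rose by more than 2, and 93 fell and 7 rose by more than 4. The median over all tested genes was -0.01. This balance depends on the scaling. With every library set to the same total the median was -0.22 and 30.4% of the calls were rises, and with ribosomal protein genes as the reference it was -0.39 and 16.8% were, against 50.7% as reported. Against the 90 min libraries, 922 genes (7.62%) were higher at 360 min and 1010 (8.35%) were lower.

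Apart from histones, most of the 15 largest falls were those of signalling and transcription regulators. DUSP1, a phosphatase that shuts off MAP kinases, stood at 273, 215 and 282 normalized counts at 0 min and at 0, 2.1 and 0 at 360 min, a log2 difference of -7.46 ± 0.85 (SE), adjusted p = 7.7e-07. No 360 min library came near the 0 min range, and 0.272% of the mean level remained. The drop was nearly complete by 90 min, when the mean was 4.93. HES1, the repressor induced by Notch, went from 838, 723 and 754 to 7.88, 1.24 and 3.67 (-7.41 ± 0.63 (SE), adjusted p = 1.3e-08). SGK1, a kinase induced by glucocorticoid and serum, went from 647, 657 and 911 to 5.11, 2.35 and 3.32 (-7.36 ± 0.95 (SE), adjusted p = 3.6e-06). Both were below 1% of their 0 min mean. CCN1, a secreted matricellular protein of the YAP and serum response, started far higher, at 3921, 3625 and 3804, and ended at 28.96, 25.6 and 21.4 (-7.18 ± 0.62 (SE), adjusted p = 1.9e-08), and its decline went on between 90 and 360 min (-2.89, adjusted p = 0.0026).

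NFKBIA, the inhibitor that holds NF-κB in the cytoplasm, fell from 1199.9, 1315 and 1344 to 13.1, 7.82 and 10.98, a log2 difference of -6.81 ± 0.34 (SE), adjusted p = 6.7e-12. JUNB, an AP-1 subunit, fell from 935, 971 and 1048 to 15.2, 7.33 and 11.3 (-6.38 ± 0.43 (SE), adjusted p = 5.1e-10). IER5, an immediate early gene, had 3 libraries between 571 and 639 at 0 min and still had a mean of 67.8 at 90 min before it reached 4.74, 1.05 and 17.5. Its fall was large after 90 min too (-3.50, adjusted p = 1.3e-04). TRIB1, a pseudokinase adaptor, fell from 249.7, 309.7 and 283 to 0.853, 0 and 3.71 (-7.09 ± 0.82 (SE), adjusted p = 9.2e-07). SOCS3, the inhibitor of cytokine receptors, and PPP1R3C, a glycogen-targeting phosphatase subunit, were listed at 0 in all 3 libraries at 360 min after 103, 72.6 and 101 and 129, 107 and 109.8 at 0 min. No fold is given here for a gene with all libraries of a group at 0. POLR2J2, a polymerase subunit gene with near-identical copies, was also listed at 0 at 360 min, but its mean of 103 at 180 min was as high as that of 94.6 at 0 min, and its counts are uncertain.

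**Figure D1:**
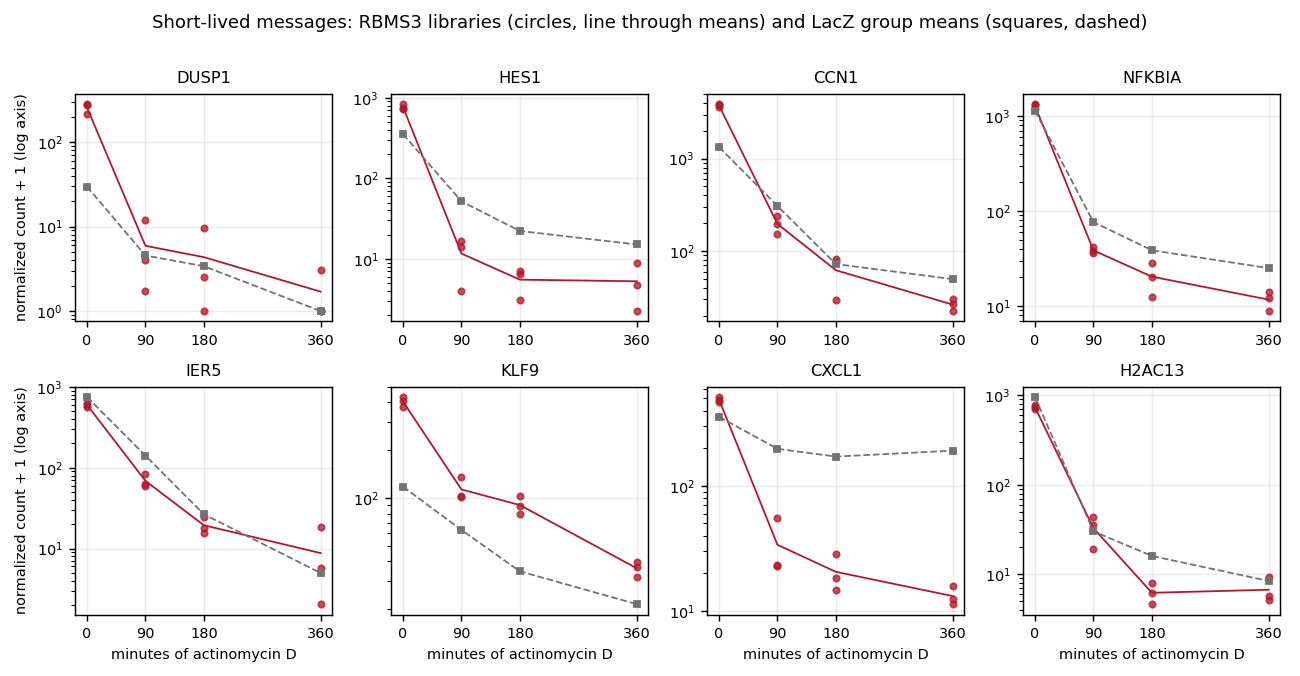
Normalized count + 1 (log axis) against minutes of actinomycin D for 8 messages that fell, in the 3 RBMS3 libraries at each time (circles, line through the means) and as LacZ group means (squares, dashed). In RBMS3 cells the 360 min libraries of all 8 genes lie below every 0 min library, and CXCL1 is the panel in which the LacZ mean at 360 min, at 190.0, stays far above the RBMS3 libraries.

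As classes, 18 of 23 immediate early transcription factors fell and none rose, with a median of -3.22. The median was -1.95 at 90 min and -2.78 at 180 min. MYC, the growth regulator on this list, went from 210.1, 225 and 220.0 to 4.4, 0 and 2.87 (-6.31 ± 0.95 (SE), adjusted p = 2.2e-05). Of 46 signalling feedback genes, which dampen the pathways that induce them, 38 fell and none rose, with a median of -2.96. Of 12 KLF and SP factors, zinc finger regulators of GC-rich promoters, 9 fell and none rose (-1.61). KLF9 fell from 430.4, 373 and 405 to 36.03, 38.8 and 30.9 (-3.48 ± 0.20 (SE), adjusted p = 7.3e-11), KLF5 from 561, 575 and 582 to 39.6, 27.5 and 42.2 (-3.96 ± 0.56 (SE), adjusted p = 1.2e-05), and KLF4, a low gene here, from 67.2, 41.1 and 52.8 to 3.18, 0 and 7.34 (-4.04 ± 0.63 (SE), adjusted p = 3.8e-05). All members that passed in these 3 classes moved one way, against near equal numbers of rises and falls over all genes. Against 90 min the medians were -1.17, -0.94 and -0.94. Of the regulators named so far, DUSP1, HES1, TRIB1, SOCS3, PPP1R3C, POLR2J2, MYC and KLF5 did not pass against 90 min, with log2 differences of -1.59, -1.11, -2.23, -1.56, -1.80, -2.10, -2.68 and -1.59. Members listed at 0 in some libraries enter these medians at a value set by the added 1.

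Messages of secreted factors were mixed. Of 27 such genes listed for AU-rich messages, 15 fell and 3 rose, with a median of -1.19. The neutrophil chemokine CXCL1 fell from 471, 513 and 489 to 11.4, 14.7 and 10.3 (-5.24 ± 0.30 (SE), adjusted p = 6.3e-11), and CXCL3, its near relative, from 83.6, 81.3 and 94.8 to 0, 2.04 and 2.26 (-5.35 ± 0.48 (SE), adjusted p = 3.2e-08). Of the 336 tested genes named ZNF, most of them KRAB zinc finger repressors of low level, 123 fell and 10 rose, with a median of -1.002. ZNF699 fell from 56.02, 52.8 and 48.7 to 10.8, 0 and 0. ZNF292 is less certain: its 0 min libraries stood at 127, 2229.8 and 448, so that replicate 2 set the mean, and its 360 min libraries at 15.6, 24.3 and 10.5. ZNF564 rested on replicate 2 alone, with 7.21, 342 and 4.08 at 0 min, and lost its call without that library.

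Transcription factors of the epithelial to mesenchymal transition split. Of 12 tested, 8 fell and none rose, with a median of -1.45, and -0.54 against 90 min. FOXC2 fell from 457, 492 and 514 to 35.1, 34.6 and 53.6 (-3.57 ± 0.32 (SE), adjusted p = 2.6e-08), mostly after 90 min, when its mean was 237. SNAI2 fell from 354, 367 and 403 to 26.9, 69.2 and 32.3 (-3.22 ± 0.37 (SE), adjusted p = 8.0e-07) and FOXC1 from 162, 219.7 and 218 to 34.1, 20.96 and 30.9 (-2.77 ± 0.23 (SE), adjusted p = 1.3e-08). For all 3 the 0 and 360 min libraries did not overlap. ZEB1, the repressor of epithelial genes, had means of 412 at 0 min and 405 at 360 min and did not pass, as did not PRRX1, ZEB2 and TCF3. These 4 are named because they make up the rest of the list.

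Replication-dependent histone messages had the lowest median of the classes listed. These messages end in a stem-loop in place of a poly(A) tail, so an oligo(dT) method reads the few that are polyadenylated or primed internally. Of 21 tested, 13 fell and none rose, with a median of -3.99, reached by 180 min (-3.98), and -0.77 against 90 min. The linker histone H1-3 went from 442, 565 and 548 to 1.9, 0 and 0 (-8.50 ± 0.71 (SE), adjusted p = 1.2e-08), the largest fall of the comparison. H1-4 went from 468, 470.5 and 421 to 0, 3.14 and 9.27, and the core histones H2AC13 and H2AC14 from 697, 781 and 732 to 4.74, 4.19 and 8.24 and from 349, 414 and 350.1 to 2.84, 4.19 and 1.03. Each was below 1% of its 0 min mean. H1-4 had log2 differences of -7.02 against 0 min and -1.71 against 90 min, and the second did not pass (adjusted p = 0.14). The histone genes share sequence, so reads may be split between copies. The stem-loop of H2AC13 is shown because it is the element that marks the class, with the loop and its paired arms in capitals, from GENCODE 29.
H2AC13 (GRCh38 chr6:27808642-27808667, plus strand): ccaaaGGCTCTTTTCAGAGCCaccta

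Windows of 30 bases from the 3′ UTRs of genes that fell show the elements searched for. The first set holds the AU-rich core TATTTAT, in capitals, in messages from the lists of feedback genes and secreted factors, from the longest 3′ UTR that GENCODE 29 annotates for each gene.
CXCL1 (GRCh38 chr4:73870669-73870698, plus strand): ggagaagtcttcTATTTATTTATTTATtca
CXCL3 (GRCh38 chr4:74037086-74037115, minus strand): gagggttctactTATTTATgTATTTATttt
SOCS3 (GRCh38 chr17:78356832-78356861, minus strand): aaactttgcacaTATTTATATTTATattca
DUSP1 (GRCh38 chr5:172768643-172768672, minus strand): agggctggtcctTATTTATttaacttcacc
NFKBIA (GRCh38 chr14:35401699-35401728, minus strand): gaccacattttaTATTTATtgtgcttcgag
CCN1 (GRCh38 chr1:85583558-85583587, plus strand): gactgaatgtttTATTTATcaaaatgtagc
IER5 (GRCh38 chr1:181092442-181092471, plus strand): ggtgtcttccttTATTTATTTATTTATtta
The second set holds the Pumilio site TGTANATA, in capitals, where N is any base.
KLF9 (GRCh38 chr9:70384632-70384661, minus strand): agtaggtatttTGTACATATGTATATAtgt
KLF5 (GRCh38 chr13:73077284-73077313, plus strand): gaTGTAAATAgatgacaaacgaTGTAAATA
HES1 (GRCh38 chr3:194138414-194138443, plus strand): tgcactatattTGTATATAttttatatgtt
DUSP1 (GRCh38 chr5:172768276-172768305, minus strand): ctgtactatccTGTAAATAtatcttaagca
CENPF (GRCh38 chr1:214664014-214664043, plus strand): aaTGTAAATAgtataaagctaTGTATATAa

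Over all tested genes these elements are common, so a match is a description and not a site of action. A 3′ UTR was found for 11257 of the 12096 genes (93.06%), with a median length of 1443 bases. TATTTAT, searched on the message strand with overlaps counted, was present in 36.74% of them, in 42.05% of the 2112 matched genes that fell, in 24.05% of the 2200 that rose and in 39.15% of the 6945 that were not called. TGTANATA was present in 30.81% of all, 41.1% of those that fell, 19.77% of those that rose and 31.17% of those not called. ATATA, a short motif of the kind that RBMS proteins bind, was present in 63.72%, 68.94%, 48.68% and 66.9%. The genes that rose had shorter 3′ UTRs, with a median of 919.5 bases against 1604 for those that fell and 1590 for those not called. With at least 2 copies asked for, the shares of TGTANATA were 16.19%, 4.909% and 11.46% in genes that fell, rose and were not called.

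Length was therefore held within 4 bins of near equal size. In 3′ UTRs of 11 to 618 bases, TGTANATA was present in 17.62% of the genes that fell and 7.692% of those not called. In the second bin, up to 1443 bases, the shares were 33.33% and 18.1%. In the third, up to 2859 bases, they were 40.79% and 35.25%, and in the longest 65.13% and 58.38%. The Pumilio site was thus more frequent among genes that fell in every bin, and less frequent among those that rose, at 5.84%, 15.61%, 28.48% and 49.7%. Among genes that fell by more than 2 on the log2 scale it was more frequent in the other bins but not in the third, at 34.71%. The A and T content of the 3′ UTRs was not held equal. TATTTAT differed less between genes that fell and those not called, with 13.15% against 10.43% in the shortest bin and 71.45% against 69.54% in the longest. For ATATA the 2 shares were 33% and 26.32% in the shortest bin and 57.72% and 58.6% in the second. They were 77.62% and 80.63% in the third and 96.41% and 94.87% in the longest. With the 90 min libraries as the baseline, 40.43% of the genes that fell and 31.59% of those not called held TGTANATA, and 37.35% and 38.74% held TATTTAT. These shares are over genes of 1 comparison and carry no test.

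**Figure D2:**
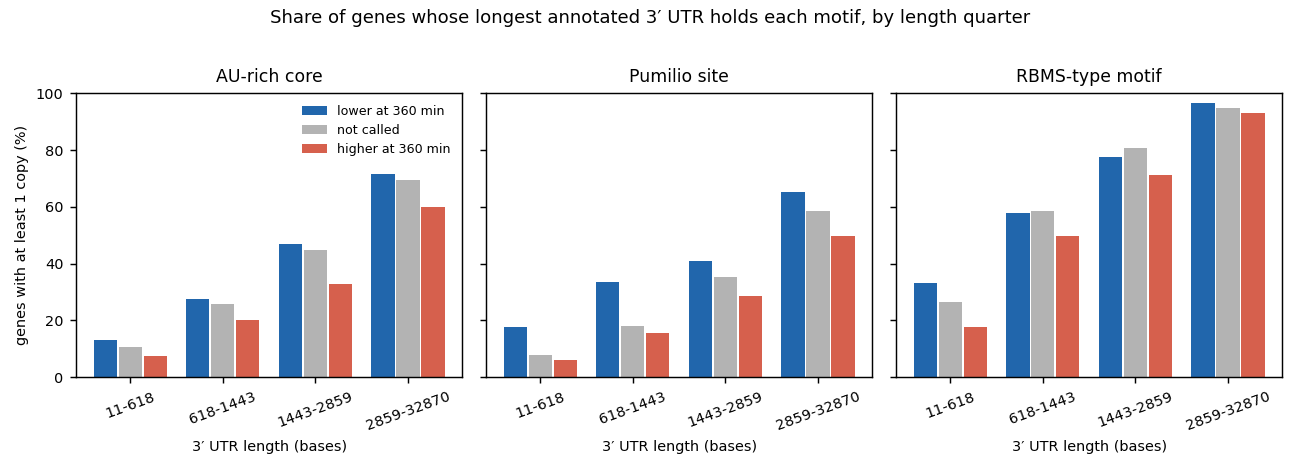
Share of genes (percent) whose longest annotated 3′ UTR holds at least 1 copy of each element, by 3′ UTR length, for genes lower at 360 min (blue), not called (grey) and higher (red). The blue bar is above the grey bar in all 4 length bins for the Pumilio site, from 17.62% against 7.692% in the shortest to 65.13% against 58.38% in the longest.

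Transcripts of the mitochondrial genome parted by kind. Mitochondrial messages are made by a separate polymerase on a circular DNA that actinomycin D also reaches, and each strand is cut into messages, rRNAs and tRNAs. Of the 13 messages 12 fell and none rose, with a median of -1.60, and the median against 90 min was -0.81. MT-ND6, the one message of the light strand, fell from 405, 405 and 375 to 16.1, 17.8 and 9.27 (-4.73 ± 0.24 (SE), adjusted p = 6.7e-12). MT-ND3 fell from 12934, 12575 and 13179 to 1243, 1196 and 1211 (-3.40 ± 0.084 (SE), adjusted p = 1.1e-16), with means of 3186 at 90 min and 1788 at 180 min. MT-ND2 fell from 24294, 26295 and 26096 to 4537, 5031 and 4536 (-2.44 ± 0.066 (SE), adjusted p = 3.6e-16). These 3 encode subunits of complex I and lost most of their share.

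Other messages of the mitochondrial genome lost less. MT-CO3, a cytochrome oxidase subunit, kept 32.96% of its mean level (-1.60 ± 0.071 (SE), adjusted p = 9.0e-13). MT-ATP8 and MT-ATP6, which overlap on 1 message, kept 32.4% and 57.3%. MT-ND4, of complex I like the 3 above, kept 71.8%, and its difference against 90 min did not pass (-0.13, adjusted p = 0.23). MT-CO2, named as the exception of the list, had means of 16046 and 18970.0 and did not pass (0.24, adjusted p = 0.099). The order from MT-ND6 to MT-CO2 therefore spans a near total loss and no measurable one among transcripts of 1 genome.

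The 2 ribosomal RNAs of the mitochondrion gained share. MT-RNR1 stood at 55518, 57702 and 53926 at 0 min and at 88843, 87258 and 86311 at 360 min (0.65 ± 0.07 (SE), adjusted p = 3.2e-07). MT-RNR2, the highest feature of the table, went from 201567, 205548 and 193501 to 286597, 302441 and 293961 (0.56 ± 0.069 (SE), adjusted p = 2.2e-06). Against 90 min, MT-RNR2 did not pass (0.17, adjusted p = 0.11), nor did it with ribosomal protein genes as the reference. Of the 18 rRNA and tRNA features 7 rose and 8 fell. MT-TV, the valine tRNA between the rRNA genes, rose from 387, 371 and 329.5 to 6162, 6102 and 5186 (4.00 ± 0.17 (SE), adjusted p = 6.8e-13), and its means of 925 at 90 min and 3133 at 180 min show a climb at each time. The alanine tRNA MT-TA fell from 238, 337 and 381 to 36.98, 18.9 and 44.3 (-3.27 ± 0.26 (SE), adjusted p = 6.2e-09), and the histidine tRNA MT-TH was listed at 0 in all 3 libraries at 360 min after 39.7, 78.3 and 53.4. A tRNA feature here counts whatever 3′ reads were assigned to it, precursors included, and the median of the 18 changed from -0.37 against 0 min to 0.69 against 90 min.

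**Figure D3:**
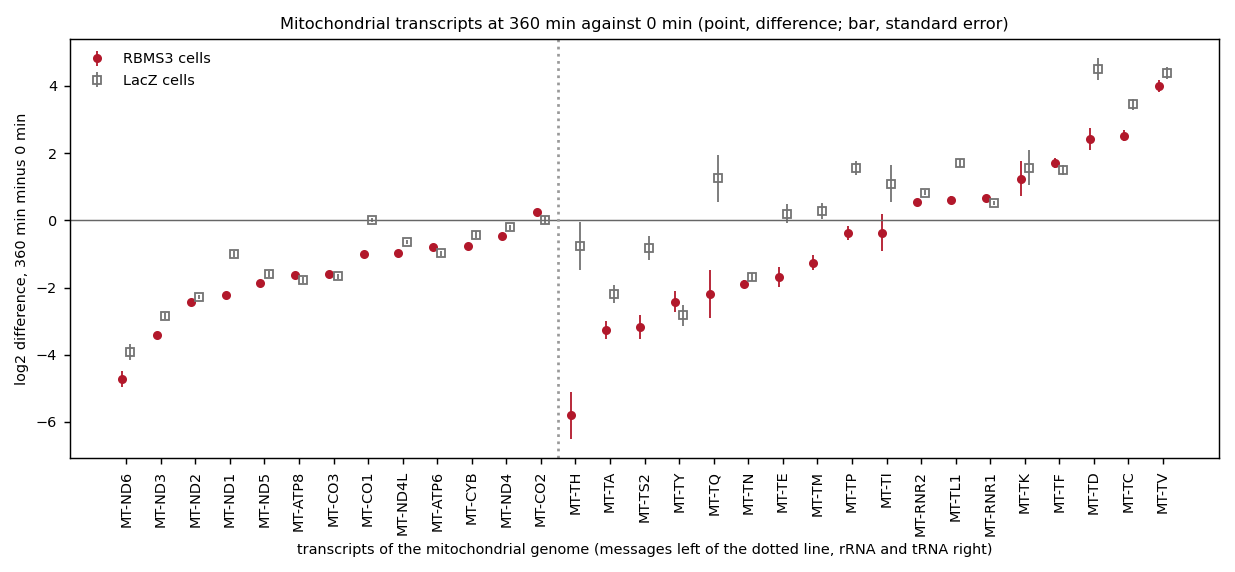
Log2 difference between 360 and 0 min for the 31 tested transcripts of the mitochondrial genome in RBMS3 cells (red circles) and LacZ cells (grey squares), with standard errors. Messages lie left of the dotted line, where in RBMS3 cells the lowest is MT-ND6 at -4.73, and rRNA and tRNA lie right of it, where the highest is MT-TV at 4.00.

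Several classes of protein synthesis, respiration and protein turnover gained share. Of 79 cytosolic ribosomal protein genes 58 rose and none fell, with a median of 0.38. RPL18 went from 6947, 7048 and 7421 to 13684, 13941 and 12289 (0.90 ± 0.062 (SE), adjusted p = 7.3e-10) and RPL7 from 5819, 5769.7 and 6139 to 10134, 10546 and 9745 (0.78 ± 0.085 (SE), adjusted p = 3.9e-07). RPS3 and RPL27A, among the 10 highest genes that rose, reached 158% and 169% of their 0 min means. The gain came late: the class median was -0.0055 at 90 min and 0.44 between 90 and 360 min. RPLP1, a stalk protein of the large subunit, rose by less, from 30395, 32108 and 33480.2 to 40908, 41855 and 40479 (0.36 ± 0.046 (SE), adjusted p = 2.8e-06). When the libraries were scaled to these genes themselves, their median was -0.012 by construction and RPLP1 stood at -0.029.

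Translation initiation and elongation factors followed, with 24 of 45 higher and 1 lower and a median of 0.37. EIF6, which keeps ribosomal subunits apart, rose from 2106, 2145 and 2029 to 4226, 4214 and 4127 (1.00 ± 0.084 (SE), adjusted p = 1.2e-08), EIF3G to 208% and EIF2S1, the regulatory target of the stress kinases, to 204% of the 0 min mean. EIF2S1 had most of its gain by 90 min, and its difference against 90 min did not pass (0.26, adjusted p = 0.16). PABPC1, the poly(A)-binding protein, rose from 22426, 24541 and 25278 to 42844, 38936 and 40454 (0.76 ± 0.11 (SE), adjusted p = 2.1e-05). Of 78 mitochondrial ribosomal protein genes 42 rose and 2 fell (0.48). MRPS26 and MRPL49 reached 211% and 206% of their 0 min means, while MRPL44 fell from 150.3, 151 and 149 to 70.2, 48.2 and 90.7 (-1.14 ± 0.24 (SE), adjusted p = 9.0e-04). With cytosolic ribosomal protein genes as the reference, the translation factors had a median of -0.018 and the mitochondrial ribosomal proteins one of 0.088.

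Of 80 nuclear-encoded subunits of the respiratory chain 57 rose and none fell, with a median of 0.53 and 0.37 against 90 min. The chain's nuclear and mitochondrial messages thus moved in opposite directions. CYC1, a subunit of complex III, rose from 1285, 1484 and 1311 to 2697, 2604 and 2684 (0.97 ± 0.10 (SE), adjusted p = 1.1e-07), and NDUFV2 and NDUFA5 of complex I reached 196% and 211% of their 0 min means. NDUFA5 gained nothing measurable after 90 min (0.032, adjusted p = 0.91). Of 37 proteasome subunits 24 rose and 1 fell (0.51). PSMB6, a catalytic-ring subunit, rose from 1239, 1318 and 1335 to 2774, 2724 and 2563 (1.05 ± 0.057 (SE), adjusted p = 2.5e-11), PSMB4 to 190.3% and PSMB2 to 195%. Scaled to the ribosomal protein genes, the medians were 0.14 for the chain and 0.12 for the proteasome, and PSMB2 no longer passed.

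Among the highest messages, MT2A, a metallothionein that binds zinc and copper, rose from 168959, 170039 and 176840.0 to 239624, 236360.0 and 229116 (0.45 ± 0.075 (SE), adjusted p = 7.2e-05), FTH1, the ferritin heavy chain, to 149% and ACTB, cytoplasmic actin, to 159% of the 0 min mean. MT1X, another metallothionein, fell from 3405, 3427 and 3754 to 2300.3, 2218 and 2072 (-0.68 ± 0.08 (SE), adjusted p = 1.0e-06). MT1E stood at 21219, 21102 and 23184 and 34576, 30605 and 31642, a call (adjusted p = 0.031) that 5 of the 6 single-library omissions from the 2 groups and several other settings took away. The metallothionein genes are close copies of each other, and reads may be split between them. BCYRN1, a short neuronal RNA related to the Alu repeats, which have many copies in the genome, rose to 164%, an uncertain value for the same reason. MALAT1, the nuclear long RNA, fell to 70.2% of its 0 min mean (-0.51 ± 0.15 (SE), adjusted p = 0.013). That call ended without replicate 2 at 0 min or without replicate 1 at 360 min, and MALAT1 did not pass against 90 min. NEAT1, the paraspeckle RNA, fell to 41.1% of its 0 min mean (-1.17 ± 0.26 (SE), adjusted p = 0.0014). At 0 min NEAT1 stood at 659, 711 and 1564, so replicate 3 was far above the other 2.

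Several of the largest rises were those of short noncoding RNAs that lack a stable poly(A) tail. SNORD13, a nucleolar RNA that guides rRNA acetylation, rose from 316, 355 and 436 to 3429, 3992 and 4003 (3.37 ± 0.13 (SE), adjusted p = 1.2e-13), and the 90 min mean was already 1828. SNORD118, the U8 RNA of rRNA maturation, was listed at 0 in all 3 libraries at 0 min and stood at 78.7, 42.96 and 48.4 at 360 min. RNU1-1, a U1 RNA of the spliceosome, rose from 22.5, 24.5 and 32.9 to 259, 304 and 239 (3.29 ± 0.43 (SE), adjusted p = 4.6e-06), and SNORD46 from 5.37, 5.66 and 0 to 80.6, 103 and 81.4. Other features of this kind were less even between libraries. RNU6-37P, a U6 copy, stood at 71.9, 0 and 27.7 at 0 min, and SNORA67 at 0, 0 and 21.6. SNORD3B-1, one of several U3 copies, went from 10.7, 11.3 and 27.7 to 208, 188 and 215, and it lost its call on leaving out either of replicates 1 and 2 at 0 min or any library at 360 min. Over all 78 tested small nuclear and nucleolar RNA genes 17 rose and 20 fell, with a median of -0.31. These shares lay near the 19.1% higher and 18.6% lower over all genes, so the large rises were not a rule for the class. Many of the 78 are near-identical copies.

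Of the large rises outside that class, MTFMT, which formylates the initiator tRNA of mitochondria, went from 47.2, 48.2 and 58.5 to 1607, 1247 and 1196 (4.68 ± 0.98 (SE), adjusted p = 7.1e-04) through means of 277 and 987. In LacZ cells it stood at 23.5, 44.3 and 25.4 at 360 min, but the difference in change between the lines did not pass for MTFMT. DSTNP3, a processed pseudogene, stood at 5.37, 102 and 0 at 0 min and at 446, 348 and 555 at 360 min, and 5 of the 6 single-library omissions from the 2 groups ended its call. FAM71F2 was at 2.43, 8.98 and 3.73 at 0 min, near the same at 90 and 180 min (means of 5.93 and 1.43) and at 84.5, 65.3 and 35.6 at 360 min.

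**Figure D4:**
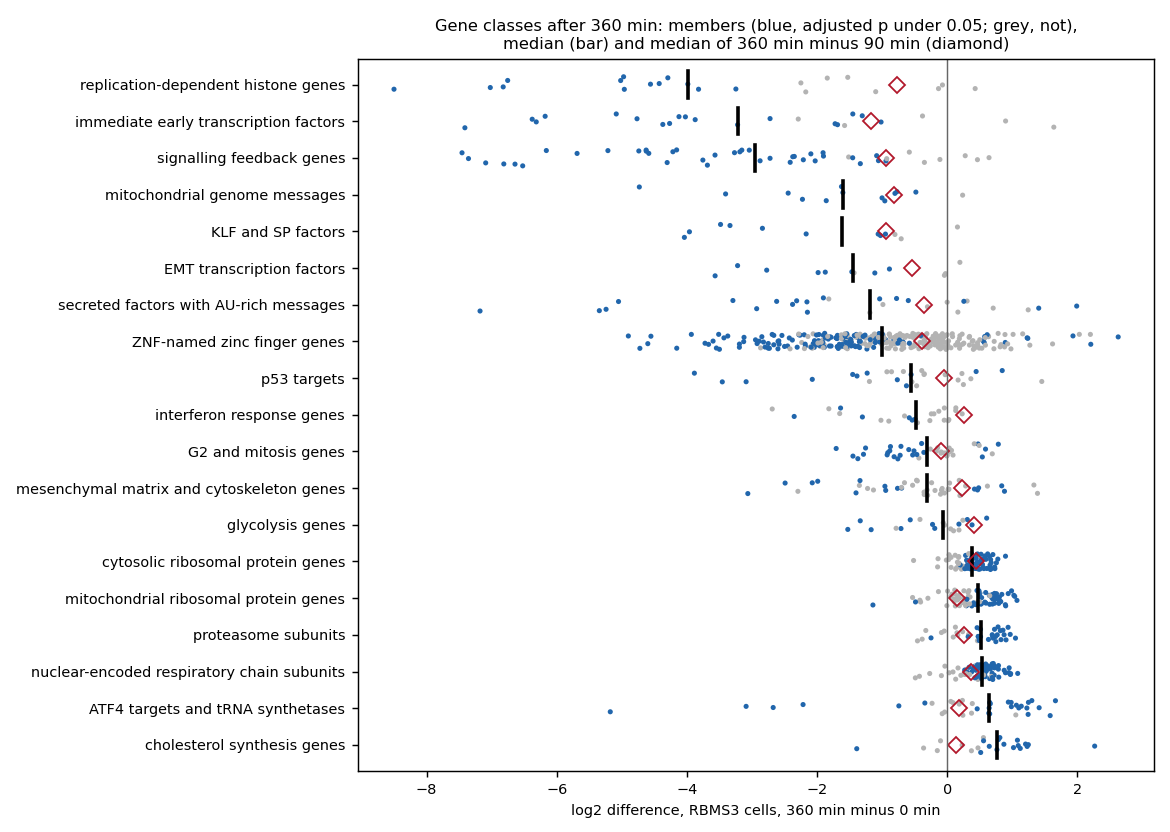
Log2 difference between 360 and 0 min in RBMS3 cells for the tested members of 19 gene classes (points, blue where adjusted p is under 0.05), with the class median (bar) and the median of the difference between 360 and 90 min (open diamond). Histone, immediate early and feedback classes lie far left, cholesterol and ATF4 classes lie right, and for interferon, mesenchymal and glycolysis genes the diamond lies on the other side of 0 from the bar.

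A further group of genes changed before 90 min and little after. Basal keratins led it. KRT14, an intermediate filament protein of basal epithelium, stood at 6168, 6108 and 5902 at 0 min and at 1198, 1159.8 and 1195 at 360 min (-2.35 ± 0.10 (SE), adjusted p = 5.3e-13), but its 90 min mean was 791, and from there it rose (0.59, adjusted p = 2.9e-04). KRT5, its partner, went from 2437, 2688 and 2829.7 to a mean of 714 at 90 min and 1122, 917 and 1060.1 at 360 min (-1.36 ± 0.19 (SE), adjusted p = 1.3e-05). KRT17 went from 2962, 2930.5 and 3086 through 668 to 972, 877 and 943 (-1.69 ± 0.07 (SE), adjusted p = 4.6e-13). In LacZ cells all 3 keratins rose over the 360 min, by 0.40, 0.87 and 0.48. In such bulk libraries, fewer keratin-expressing cells and less keratin message per cell cannot be told apart. The 11 basal markers summed to 14372 to 14652 at 0 min, 5357 to 5515 at 90 min and 6173 to 6545 at 360 min, and these 3 keratins made up most of the sum. Over the 11 markers 5 fell and 3 rose, with a median of 0.14 that changed sign under several settings.

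Some matrix genes of the mesenchymal state did likewise. FN1, fibronectin, the highest message that fell, stood at 31863, 30780.2 and 29284 at 0 min, at a mean of 14879 at 90 min and at 18777, 17220.2 and 18182 at 360 min. Its difference was -0.76 ± 0.13 (SE), adjusted p = 1.4e-04 against 0 min and 0.28 (adjusted p = 0.18) against 90 min. TGFBI, a matrix protein induced by TGF-β, went from 12728, 12582 and 13167 through 6861 to 7529, 7606 and 7882 (-0.74 ± 0.055 (SE), adjusted p = 2.1e-09). BGN, a small proteoglycan, went from 1452, 1639 and 1542 through 253 to 445, 305 and 361 (-2.07 ± 0.59 (SE), adjusted p = 0.0085), and DCN, its relative, from 171, 160.4 and 172 to 13.6, 26.5 and 66.6 (-2.49 ± 0.63 (SE), adjusted p = 0.0035). COL3A1 differed between the 0 min libraries themselves, at 2000.1, 169 and 171, against 47.9, 44.2 and 44.3 at 360 min. Of 44 mesenchymal genes 10 fell, 5 rose and 29 were not called, a share of falls near that over all genes (18.6%), with a median of -0.30 against 0 min and 0.23 against 90 min. In all, 10 of the class were level from 90 min on, with an average over the later times at least 2-fold below 0 min.

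Single oxygen-responsive and immune genes were also lower by 90 min, and some of them rose again. CA9, the hypoxia-induced carbonic anhydrase, went from 185, 169 and 298 to a mean of 6.67 at 90 min and to 10.8, 5.4 and 3.19 at 360 min (-4.96 ± 0.84 (SE), adjusted p = 9.0e-05). LDHA, lactate dehydrogenase, stood at 16280.4, 16459 and 16318 at 0 min, 10463 at 90 min and 14866, 14589.9 and 13559.5 at 360 min (-0.19 ± 0.047 (SE), adjusted p = 0.003), and rose against 90 min (0.45, adjusted p = 1.4e-06). Of 19 glycolysis genes 7 fell and 4 rose against 0 min (median -0.06), the largest fall being -1.53 for ENO2. ALDOC and HK2 fell to 43.9% and 42.02% of their 0 min means, ALDOC with a call that ended without replicate 3 at 0 min or without replicate 1 or 3 at 360 min. Against 90 min 10 of the 19 passed as higher and none as lower, and the glycolysis median was 0.41. HLA-B, a class I antigen-presenting protein, fell to 40.6% and stood above its 90 min mean at 360 min. Of 24 interferon response genes 6 fell and none rose (median -0.47, and 0.26 against 90 min), IFI6 among them at 32.7%. Beside these 2 lists, 18.6% of all tested genes fell and 19.1% rose against 0 min.

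Upward shifts by 90 min were found as well. TBL1X, a subunit of a corepressor complex, stood at 64.8, 88.3 and 79.6 at 0 min, at a mean of 586 at 90 min and at 690.2, 674 and 724 at 360 min (3.16 ± 0.66 (SE), adjusted p = 7.0e-04). HS3ST2, a heparan sulfate sulfotransferase, went from 13.95, 18.9 and 6.16 to 116, 102 and 124 with a 90 min mean of 137, COL13A1, a transmembrane collagen, from 6.88, 8.56 and 2.22 to 46.96, 78.3 and 92.9, and SFTA1P, a pseudogene, from 3.54, 9.41 and 3.41 to 65.4, 60.6 and 59.6. None of these 4 passed against 90 min. ASNS, asparagine synthetase and a target of the stress factor ATF4, rose from 154, 155 and 179 through 437 to 533, 485 and 531 (1.66 ± 0.17 (SE), adjusted p = 1.8e-07). Of 36 ATF4 targets and tRNA synthetases 19 rose and 6 fell (0.64). Of these genes 8 were level from 90 min on, with an average over the later times at least 2-fold above 0 min. DDIT4 and SESN2, inhibitors of mTORC1 signalling, fell with the labile genes, DDIT4 from 996, 1048 and 1056 to 38.9, 32.5 and 16.5 (-5.18 ± 0.33 (SE), adjusted p = 2.1e-10) and SESN2 to 10.95% of its 0 min mean.

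**Figure D5:**
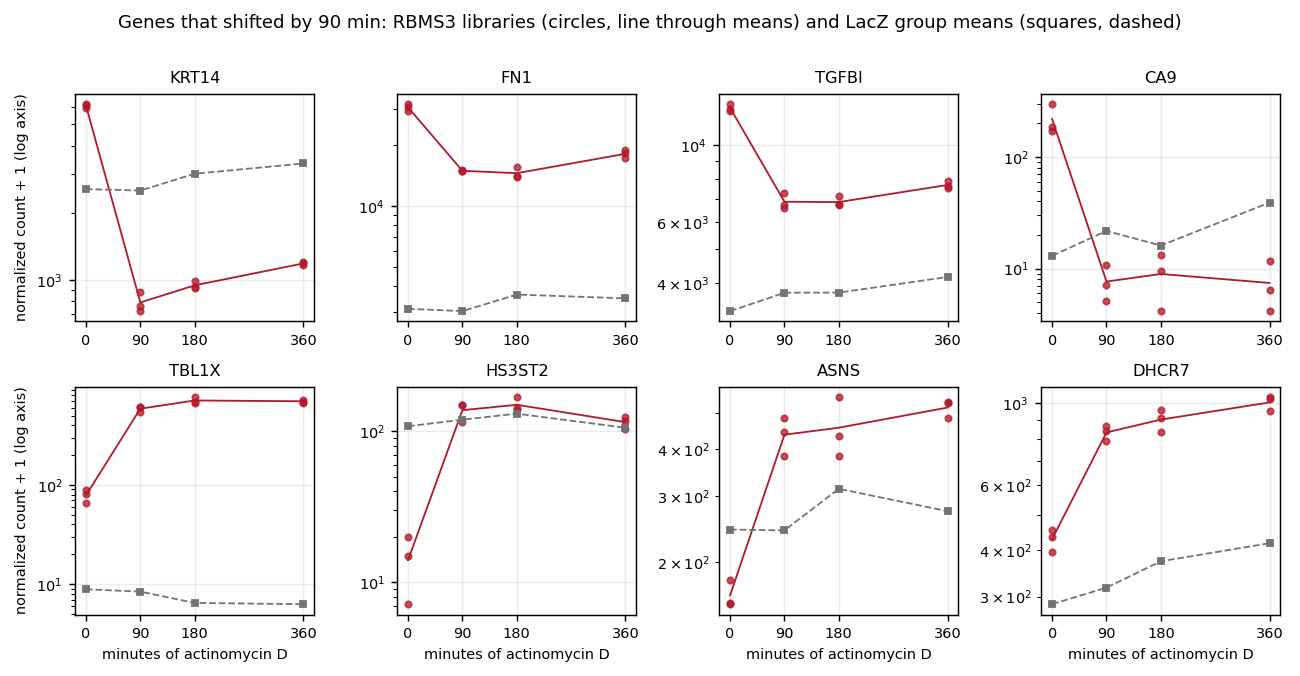
Normalized count + 1 (log axis) against minutes of actinomycin D for 8 genes whose RBMS3 libraries (circles, line through the means) changed mainly between 0 and 90 min, with LacZ group means (squares, dashed). KRT14, FN1, TGFBI and CA9 drop by 90 min and TBL1X, HS3ST2, ASNS and DHCR7 climb, while the LacZ means move less over the same time.

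Cholesterol synthesis genes had the highest median of the classes, 0.77, with 15 of 23 higher and 1 lower, and that median was 0.74 at 90 min. DHCR7, which makes cholesterol from its last precursor, rose from 396, 454 and 435 to 1039, 950.4 and 1023 (1.23 ± 0.16 (SE), adjusted p = 3.4e-06), and ACAT2, which makes acetoacetyl-CoA, from 191, 201 and 210.4 to 525, 468 and 443 (1.25 ± 0.13 (SE), adjusted p = 3.6e-07). Against 90 min 4 of the 23 passed as higher and the median was 0.13. Secretory pathway genes rose in 16 of 36 cases and fell in 2. SAR1A, the GTPase that starts vesicle budding, rose to 204%, and P4HA1, which hydroxylates collagen, fell to 60.1% with a 90 min mean of 487.

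Messages of mitosis fell in part. Of 40 G2 and mitosis genes 19 fell and 4 rose, with a median of -0.31. CENPF, a kinetochore protein, went from 2068, 2099 and 2041 to 680.5, 474 and 789.8 (-1.71 ± 0.21 (SE), adjusted p = 2.1e-06), CENPE, a kinetochore motor, from 1959, 1758 and 1754 to 667, 798 and 652 (-1.37 ± 0.10 (SE), adjusted p = 2.1e-09), and KIF23 of the midbody from 778, 824 and 717 to 243, 273 and 339 (-1.45 ± 0.12 (SE), adjusted p = 1.7e-08). These 3 also fell against 90 min, with log2 differences of -1.24, -0.65 and -1.01. TOP2A, the topoisomerase of dividing cells, did not: it dropped from 12396, 11427 and 12548 to a mean of 7103 at 90 min and stood at 7349.6, 6315 and 7025 at 360 min (-0.82 ± 0.16 (SE), adjusted p = 3.5e-04). Of 47 replication genes 10 fell and 9 rose (median -0.026), near the 18.6% and 19.1% of all genes. FEN1, a flap nuclease, fell from 1501, 1827 and 1392 to 615, 501 and 556 (-1.49 ± 0.29 (SE), adjusted p = 3.7e-04).

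Of 27 p53 targets 10 fell and 2 rose, with a median of -0.55, beside 18.6% lower and 19.1% higher over all genes. PLK2, a polo-like kinase, fell from 192, 140.0 and 161 to 6.29, 11.8 and 13.6 (-3.88 ± 0.38 (SE), adjusted p = 9.3e-08, and -1.08, adjusted p = 0.059 against 90 min) and AEN, an apoptotic nuclease, from 263, 265 and 275 to 63.7, 72.5 and 53.8 (-2.07 ± 0.19 (SE), adjusted p = 5.1e-08), the latter mostly after 90 min (-1.70, adjusted p = 4.2e-06). Single stress regulators fell as well: XBP1, a factor of the unfolded protein response, to 22.4% and HERPUD1, an ER degradation protein, to 25.4% of their 0 min means. Their list, the unfolded protein response and ER chaperones, had 4 of 22 higher and 5 lower with a median of 0.05, near the shares over all genes. The chaperone genes HSPA1A and HSPA1B, near-identical copies whose reads may be split, fell to 41.1% and 29.3%, after 90 min means of 865 and 256 that lay within or above the 0 min range. Of 25 heat shock genes 12 nevertheless rose and 5 fell, with a median of 0.29 that turned to -0.10 with ribosomal protein genes as the reference and to -0.029 against 90 min.

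Single RNA-binding regulators fell. The AU-rich binding and decay lists had a share of falls near that of all genes, while the splicing list had a larger one. ZFP36L1 and ZFP36L2, which bind AU-rich elements and recruit deadenylases, went from 2648, 2639 and 2769 to 569.8, 602 and 567 (-2.21 ± 0.18 (SE), adjusted p = 1.0e-08) and from 1588, 1348 and 1442 to 137, 154 and 192 (-3.19 ± 0.35 (SE), adjusted p = 5.3e-07). ZC3H12A, an RNase of inflammatory messages, was down to a mean of 2.98 by 90 min from 55.8, 55.6 and 51.3 (-4.08 ± 0.97 (SE), adjusted p = 0.0024). Over the whole list of 32 AU-rich and 3′ end binding proteins 7 fell and 3 rose (median -0.044), and over 53 genes of the decay machinery 10 fell and 15 rose (0.03), beside 18.6% lower and 19.1% higher over all genes. Of 33 splicing factors 14 fell and 4 rose, a larger share of falls than the 18.6% over all genes. HNRNPA1, an abundant splicing repressor, dropped from 10377, 9568 and 8437 to 3329.8, 3241 and 2191 (-1.72 ± 0.27 (SE), adjusted p = 3.8e-05), CLK2, a splicing kinase, fell to 24.5% (-0.58, adjusted p = 0.44 against 90 min), and CLK1, with 138, 41.97 and 50.05 at 0 min and 36.7, 7.44 and 6.37 at 360 min, lost its call when replicate 1 at 0 min or replicate 2 or 3 at 360 min was left out.

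The same comparison in LacZ cells showed how much of this was shared. There 1800 genes (14.9%) were higher and 1642 (13.6%) lower at 360 min. The LacZ libraries at 0 min, which enter all values of this comparison, had the lowest replicate correlation of the 8 groups, 0.909 to 0.954. Replicate 2 differed from the others in some classes. Immediate early factors made up 0.095% of it, against 0.147% and 0.157% in replicates 1 and 3. Across the 12096 genes the 2 lines' changes correlated at a Pearson r of 0.619, a description over genes, which are not independent. Of the genes called in RBMS3 cells 48.0% were called the same way in LacZ cells, and of those called in LacZ cells 63.5% were called the same way in RBMS3 cells, 1137 lower and 1047 higher in both. Opposite calls numbered 90. The difference itself, the change in RBMS3 cells minus that in LacZ cells, passed for 522 genes in the higher direction (4.32%) and 418 in the lower direction (3.46%), together 7.77% of the genes, and 2566 had an unadjusted p under 0.05. With only the libraries compared in the fit these were 244 and 211, and scaled to the ribosomal protein genes 856 were higher. LacZ medians of the labile classes were -3.12 for immediate early factors against -3.22 in RBMS3 cells, -2.47 against -2.96 for feedback genes, -1.12 against -1.61 for KLF and SP factors and -0.61 against -1.19 for secreted factors. Medians of opposite sign were also found, such as 0.36 in LacZ cells against -0.47 in RBMS3 cells for interferon response genes. They were 0.29 against -0.30 for mesenchymal genes, 0.35 against -0.06 for glycolysis genes and 0.51 against -0.65 for metallothioneins. For mitochondrial rRNA and tRNA they were 0.96 against -0.37. Differences between these medians were not tested.

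The difference between the lines passed for several of the labile genes named above. CXCL1 had a log2 difference of -5.24 here against -0.86 in LacZ cells, where it stood at 438, 244 and 385 at 0 min and 177, 205 and 188 at 360 min. The difference was -4.38 ± 0.43 (SE), adjusted p = 2.0e-06. CXCL3 differed by -4.38 ± 0.68 (SE), adjusted p = 3.3e-04. Both had already reached means of 32.8 and 4.34 at 90 min in RBMS3 cells. CCN1 differed by -3.10 ± 0.88 (SE), adjusted p = 0.035, HES1 by -3.06 ± 0.89 (SE), adjusted p = 0.039 and KLF9 by -1.04 ± 0.29 (SE), adjusted p = 0.032, each falling further in RBMS3 cells. These 3 calls were unsteady: of the 12 single-library omissions, 8 ended the call of CCN1, 9 that of HES1 and 7 that of KLF9, and none that of CXCL1 or CXCL3. In LacZ cells replicate 2 at 0 min stood apart, with CCN1 at 1903, 145 and 1970 and HES1 at 428, 115 and 515. Without that library CCN1 differed by -1.85 (adjusted p = 0.0094) and HES1 by -2.39 (adjusted p = 0.089). DDIT4 and HERPUD1 also passed, at -1.52 (adjusted p = 0.048) and -1.74 (adjusted p = 0.0052), and 8 of the omissions ended the call of DDIT4. For DUSP1, JUNB and NFKBIA the difference did not pass (adjusted p = 0.2, 0.073 and 0.1). CCN1, HES1 and KLF9 began higher in RBMS3 cells, with 0 min means of 3783, 772 and 403 against 1339, 353 and 117 in LacZ cells.

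The largest differences toward a lower level in RBMS3 cells were those of CA9, E2F5, SGSM1, C1R, MT-TH, CDH3, C1QL1 and PPP1R3C. CA9 had LacZ libraries at 21.4, 0 and 14.8 at 0 min and 25.8, 33.7 and 54.8 at 360 min, a log2 difference of 2.40 against one of -4.96 in RBMS3 cells (difference -7.36 ± 1.19 (SE), adjusted p = 4.6e-04). E2F5, an E2F factor, rose in LacZ cells from a mean of 21.7 to 108 and fell in RBMS3 cells from 90.1, 55.1 and 76.8 to 2.92, 14 and 5.3 (-5.97 ± 1.02 (SE), adjusted p = 7.5e-04). CDH3, P-cadherin, had LacZ means of 1451 and 1749, while RBMS3 cells went from 83.02, 86.1 and 88.8 to 5.73, 0.704 and 2.08 and had a mean of 2.71 at 90 min. C1R, a complement protease, and C1QL1 went from 184, 153 and 246 and 123, 99.9 and 96.5 to 15.98, 4.72 and 7.99 and 9.48, 33.5 and 18.5. SGSM1 rested in part on replicate 1 at 0 min, with 119, 16.2 and 27.5. The value of PPP1R3C stayed at -4.69 on leaving out any 360 min library of either line. It therefore reflects the levels of the lines at 0 min, and a difference in decay was not measurable. Against the 90 min libraries none of CA9, E2F5, SGSM1, C1R, MT-TH, CDH3, C1QL1 and PPP1R3C passed in RBMS3 cells.

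Toward a higher level the largest were FAM71F2, IPO5P1, TBL1X, KCNAB2, HS3ST2, COL13A1, SFTA1P and VGF. FAM71F2 differed by 8.49 ± 1.24 (SE), adjusted p = 1.8e-04. Its LacZ libraries went from 65.7, 61.6 and 52.7 to 2.32, 0.873 and 0, and it is the one of the 8 that also rose against 90 min in RBMS3 cells (3.15, adjusted p = 0.017). KCNAB2, a potassium channel subunit, rose from 6.09, 6.18 and 6.46 to 74.8, 56.9 and 37.2 in RBMS3 cells, through means of 27.2 and 34.1, with LacZ means of 86.7 and 68.6 (3.40 ± 0.65 (SE), adjusted p = 0.0021). VGF, a secreted neuropeptide precursor, rose from 47.02, 23.1 and 47.1 to 203, 190.0 and 195 (3.01 ± 0.80 (SE), adjusted p = 0.024), and 3 of the single-library omissions ended that call. IPO5P1, a pseudogene, rested on replicate 3 at 360 min, with 16.5, 20.01 and 399, and its difference lost its call without replicate 3 at 0 min and under other settings. TBL1X differed by 4.06 ± 0.93 (SE), adjusted p = 0.0088, and that call, like the one of COL13A1, was lost when only the libraries compared entered the fit.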

How the data were processed

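QuantSeq libraries, single reads, were made from 2 lines at 4 times, 3 per group, and grouped by title and treatment label. Nothing says that replicates were separate cultures, so p-values measure only the spread between these libraries, and that spread may be technical. Trim Galore 0.6.6 and Salmon 1.4.0 are named per the submitters' processing notes, and so is DESeq2 1.32.0. For build and annotation, nothing was found: not given in the sources used here. A table of 38849 genes deposited by the authors gives a normalized signal, called the normalized count, and all values come from it. It does not hold whole reads, so no count test was run. Estimated counts deposited by the authors for 231288 transcripts served for depth (4426445 to 9856338 reads per library, 7812047 to 8767496 in RBMS3 cells at 360 min) and a label check. The transcript file's record and title disagreed for 12 of 24 libraries, 3 of them among the 6 described here. All 24 files correlated best with the table column of their own title (r at least 0.922, next at most 0.913), and columns were matched by title.

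The test was limma 3.58.1 (R 4.3.3), with a trend and without robust fitting, on log2(normalized count + 1). Group means were fitted to 8 groups over 24 libraries, and p-values were adjusted by Benjamini-Hochberg over 12096 genes with a mean of at least 10. The threshold was an adjusted p of 0.05. The scale understates changes of low genes. The script was tested on simulated data. Motifs were searched with Python 3.11.15 in the longest 3′ UTR of GENCODE 29 (GRCh38), matched by symbol. Named genes are RBMS3, PRRX1 and genes that passed, whose higher group averaged at least 50 and whose libraries did not overlap: the 15 largest falls and rises, the 10 highest of each direction, up to 3 per class, and the 8 largest line differences each way. Other names are list exceptions or marker checks. Some genes that the rule names are not reported here. Alternatives covered the pseudocount, filters, scaling, fit, replicate block and single libraries left out. The comparison, classes and tests were chosen with earlier results of these data known and are not independent evidence.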

Additional observations from a re-analysis of the deposited data

Results flagged for a closer look

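Of the genes named in the report, those listed here changed differently in the 2 lines between 0 and 360 min, at an adjusted p under 0.05 in the limma test of that difference. Each value is the log2 change in RBMS3 cells minus the log2 change in LacZ cells. For PPP1R3C and MT-TH, listed at 0 in a whole group, the value depends on the added 1 and is no fold. That of PPP1R3C was the same without any 360 min library of either line, so it reflects levels at 0 min. COL3A1 was listed at 0 in all 6 LacZ libraries compared, so that its value is the change in RBMS3 cells alone. Among regulators and secreted factors the change in RBMS3 cells was lower for CXCL1 (-4.38), CXCL3 (-4.38), CCN1 (-3.10), HES1 (-3.06), DDIT4 (-1.52), KLF9 (-1.04), PPP1R3C (-4.69), E2F5 (-5.97) and HERPUD1 (-1.74). Among epithelial and matrix genes it was lower for CDH3 (-5.03), COL3A1 (-3.06), KRT14 (-2.75), KRT5 (-2.23), KRT17 (-2.16), P4HA1 (-1.15), TGFBI (-1.07) and FN1 (-0.97). Among immune and complement genes it was lower for C1R (-5.13), IFI6 (-2.60) and HLA-B (-2.01). Among genes of metabolism and metal or oxygen response it was lower for CA9 (-7.36), ALDOC (-2.28), HK2 (-1.60), MT1X (-1.16) and LDHA (-1.12). Among cell cycle and replication genes it was lower for FEN1 (-1.73), TOP2A (-1.11), CENPF (-1.02), CENPE (-0.73) and KIF23 (-0.70). Of the remaining genes it was lower for SGSM1 (-5.69), MT-TH (-5.04), C1QL1 (-4.90), MT-ND3 (-0.55) and RPLP1 (-0.26). The change was higher in RBMS3 cells for the largest rises, FAM71F2 (8.49), IPO5P1 (4.31), TBL1X (4.06), KCNAB2 (3.40), HS3ST2 (3.20), COL13A1 (3.02), SFTA1P (3.01) and VGF (3.01). It was also higher for ASNS (1.46), SAR1A (1.20), MRPS26 (0.77), NDUFV2 (0.70), ACAT2 (0.68), EIF3G (0.62), CYC1 (0.60), EIF2S1 (0.60), EIF6 (0.57), RPL18 (0.47), PSMB6 (0.41) and ACTB (0.36). RPL18 was the exception of its class: of 79 cytosolic ribosomal protein genes 1 passed as higher and 16 passed as lower. The RBMS3 libraries at 0 min enter every one of the values listed. Their part in them was not tested apart from the differences against 90 min given in the report. Of these 55 calls, 41 held in all 12 single-library omissions. The other 14 were those of ACAT2, CCN1, CENPF, COL3A1, DDIT4, EIF2S1, EIF3G, HES1, HK2, IPO5P1, KIF23, KLF9, RPLP1 and VGF. Groups of 3 libraries were not searched for single outlying libraries.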

How the results depend on the processing

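Pseudocounts of 0.5 and 5, other filters on low values, limma without a trend or with robust on, and leaving out features with near-identical copies kept the counts of genes within 1.5 times. Leaving out 1 library at a time gave 1914 to 2042 higher and 1895 to 1984 lower genes, and 375 to 596 higher and 311 to 506 lower for the line difference. Not every gene was tested under each setting. A filter at a mean of 50 left 106 of 128 genes looked up, and leaving out near-identical copies left 111. Of the 126 genes named that passed, 112 kept their call and direction wherever tested under these settings, the rescalings, the smaller fit and the replicate block. The other 14 were ALDOC, BCYRN1, CLK1, DSTNP3, IPO5P1, MALAT1, MT-RNR2, MT1E, MT2A, PSMB2, RNU6-37P, RPLP1, SNORD3B-1 and ZNF564. With libraries scaled to the same total, 1307 genes were higher. Scaled to the ribosomal protein genes, 774 were higher and 3841 lower, 856 were higher in the line difference, RPLP1 turned to -0.029, and class medians changed sign for cytosolic ribosomal protein genes (-0.012), translation initiation and elongation factors (-0.018), heat shock genes (-0.10), collagen processing and secretory pathway genes (-0.069), snoRNA host genes (-0.13), basal mammary markers (-0.22), unfolded protein response and ER chaperones (-0.34) and mRNA decay machinery (-0.36). The last 3 also changed sign with libraries scaled to the same total, at -0.047, -0.17 and -0.19. Scaling to the ribosomal protein genes centres the ribosomal protein genes themselves by construction. With only the libraries compared in the fit the line difference passed for 244 higher and 211 lower genes, from fewer libraries. Replicate numbers did not pair the libraries: same-numbered libraries at 0 and 360 min correlated at -0.006, 0.028 and 0.010 in their deviations, and with the replicate number as a block 2287 genes were higher and 2242 lower, and 505 and 408 for the line difference.

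With the 90 min libraries as the baseline, chosen after seeing the data, 922 genes were higher and 1010 lower. Of the 126 named genes 56 kept their call, 51 kept the direction without passing and 19 turned. The turned values, 360 minus 90 min, were ALDOC (0.22), BGN (0.54), C1R (0.94), CDH3 (0.012), COL3A1 (0.39), ENO2 (0.57), FN1 (0.28), HLA-B (0.37), HS3ST2 (-0.26), IFI6 (0.047), KRT14 (0.59), KRT17 (0.48), KRT5 (0.53), LDHA (0.45), MT1X (0.20), P4HA1 (0.31), SNORA67 (-0.36), TGFBI (0.16) and ZC3H12A (0.17). Class medians turned for mitochondrial genome rRNA and tRNA (0.69), heat shock genes (-0.029), mesenchymal matrix and cytoskeleton genes (0.23), metallothioneins (0.20), interferon response genes (0.26), glycolysis genes (0.41), replication genes (0.017) and the 2 leukocyte and endothelial markers tested (0.73). The cause was not tested. Depth of 4426445 to 9856338 estimated reads per library leaves levels of a few counts at 360 min unresolved, and the fitted changes of such genes depend on the pseudocount.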
